A study of Mus musculus with 6 samples.

Results

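The acute phase serum proteins examined here were the 4 serum amyloid A genes (Saa1, Saa2, Saa3 and Saa4), the 3 orosomucoid genes (Orm1, Orm2 and Orm3), lipocalin 2 (Lcn2), haptoglobin (Hp) and the serpin Serpina3n. They were taken by gene symbol from a table of raw read counts that lists 24063 genes, and all 10 were found. The libraries came from liver tumors of male C57BL/6 mice that received the liver carcinogen diethylnitrosamine (DEN) at 25 mg per kg when 15 days old and were sampled at the 24-week time point. The WT group (NR2E3+/+) and the Nr2e3-/- group, which lacks the orphan nuclear receptor NR2E3, held 3 tumors each, with 1 library per mouse, and both groups carried the DEN treatment. How the Nr2e3-/- allele was made is not given in the sources used here, and liver without tumor was not analysed here. The study calls the mice knockouts and names a deletion limited to hepatocytes as work still needed.

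The acute phase response is the change in plasma proteins that follows infection, injury or inflammation, and the liver is its main source. Interleukin-6 type cytokines act through gp130 and STAT3, and interleukin-1 type cytokines act through NF-kB. In hepatocytes both routes act together with C/EBP factors on the genes of positive acute phase proteins, whose plasma level goes up, while negative acute phase proteins such as albumin go down. In mice, serum amyloid A is among the proteins that change most, orosomucoid and haptoglobin are moderately inducible and abundant, and Saa4 is known as the constitutive member of its family.

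Total counts per library ranged from 15376261 to 28690279, the lowest in Nr2e3-/- replicate 1. Nr2e3 itself had 0 counts in all 6 libraries, so its own counts do not check the genotype. The library of Nr2e3-/- replicate 1 was closer to the WT libraries than to the rest of its group. Over all genes tested, its log2 values had correlations of 0.973 to 0.981 with the WT libraries. With the other Nr2e3-/- libraries they were 0.952 and 0.972, and those libraries had 0.979 with each other. Nr2e3-/- replicate 2 was the library least like the WT libraries, with correlations of 0.950 to 0.958. Defining hepatocyte genes such as Alb were abundant in every library, and the 10 hepatocyte markers listed had a median log2 fold change of 0.08. Levels are given as CPM, counts scaled to a common library size, after TMM normalization, and a log2 fold change is that of Nr2e3-/- over WT tumors from edgeR's quasi-likelihood F test with Benjamini-Hochberg adjustment over the 13572 genes tested.

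All 10 acute phase serum protein genes had a higher fitted level in Nr2e3-/- than in WT tumors, and 0 of the 10 passed an adjusted p-value of 0.05, a threshold that 0.0958% of all genes tested passed. Their median log2 fold change was 2.02, against 0.0073 over all genes tested, of which 50.8% were above 0. An unadjusted p-value under 0.05 with a higher level in Nr2e3-/- tumors was found for 8 of the 10 genes and for 11.8% of all genes tested, and a lower level at that threshold for 0 of the 10 and for 9.72% of all genes tested. The 3 Nr2e3-/- libraries were all above the 3 WT libraries for 6 of the 10 genes (Saa1, Saa2, Saa4, Orm1, Orm3 and Serpina3n), against 13.9% of all genes tested. An exact two-sided permutation test gave p = 0.1 for each of those 6 genes, the smallest value that 3 libraries against 3 allow. In bulk tumor RNA, fewer cells that express a gene and less RNA per cell cannot be told apart.

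The outcome of the test depended on Nr2e3-/- replicate 1. Without it, 8 of the 10 genes passed an adjusted p-value of 0.05 (edgeR), all with a higher level in Nr2e3-/- tumors, as did 12.2% of the genes tested in that fit. Leaving out any other single library left 0 of the 10 past the threshold. With all 6 libraries, DESeq2 called 6 of the 10 genes (higher, 4.93% of genes) and limma-voom with sample quality weights called 8 (higher, 9.48% of genes).

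**Figure D1:**
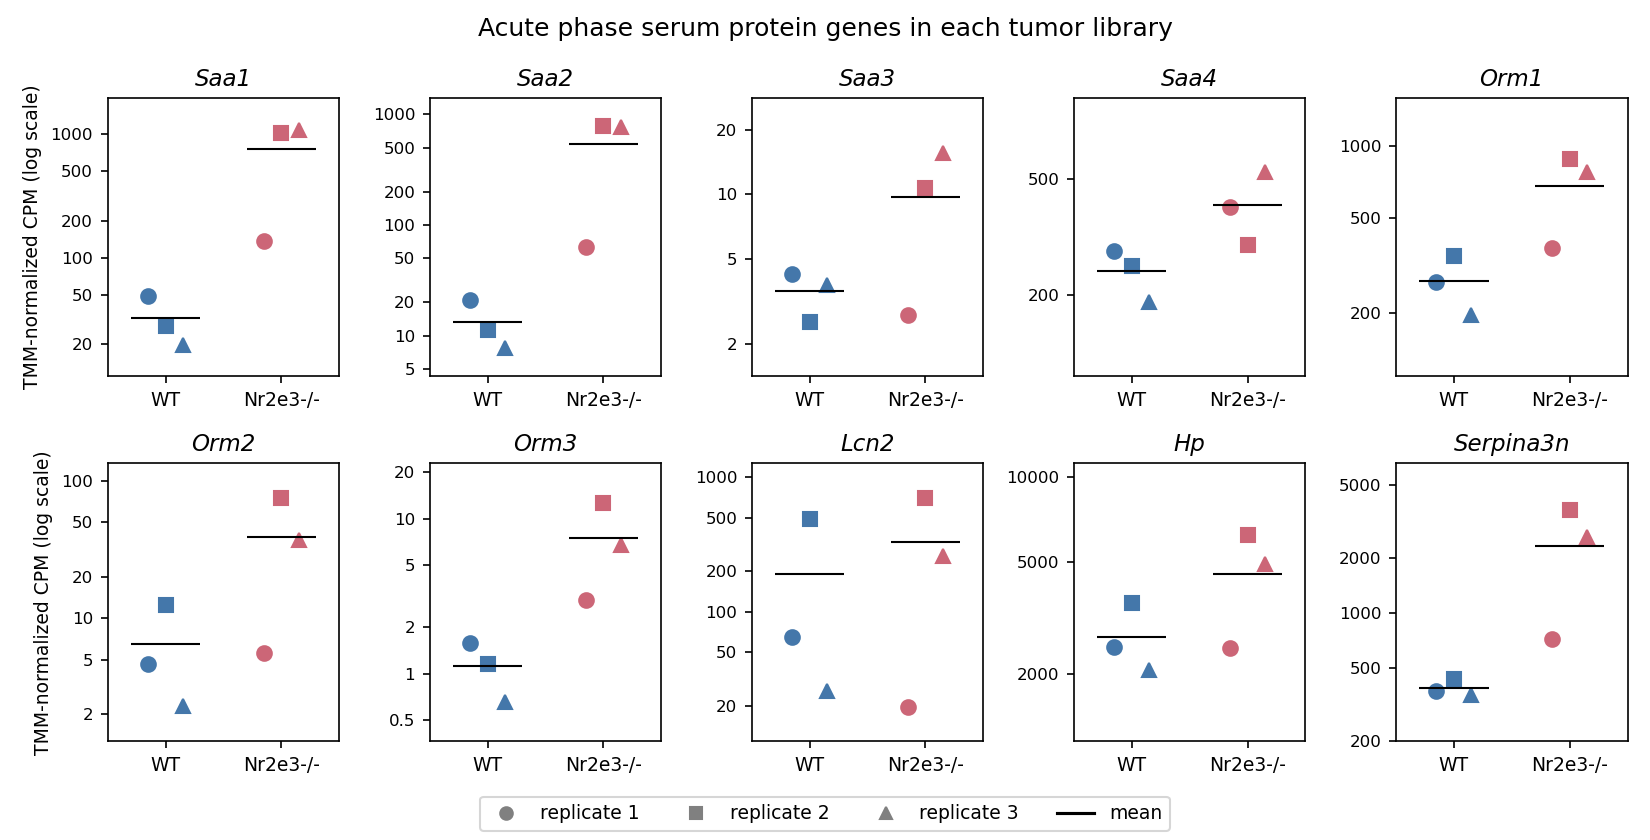
Level of each of the 10 genes in each library, as TMM-normalized CPM on a log axis that differs between panels; blue points are WT tumors, red points are Nr2e3-/- tumors, the marker shape gives the replicate number and the black line is the group mean. The circle of Nr2e3-/- replicate 1 is the lowest red point in 9 of the 10 panels, all but that of Saa4.

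Saa1 and Saa2, which encode the serum amyloid A proteins that the liver secretes in the acute phase, had the largest differences of the 10 genes. Both lie on mouse chromosome 7 (GENCODE M21, GRCm38), Saa1 at chr7:46740497-46742980 on the minus strand and Saa2 at chr7:46751790-46754313 on the plus strand, with 8.809 kb between them. Saa1 had levels of 49.3, 28.0 and 19.9 CPM in the WT tumors, against 138, 1028 and 1090 CPM in Nr2e3-/- replicates 1, 2 and 3. The groups did not overlap, and Nr2e3-/- replicate 1 lay closer to the WT libraries than to the other libraries of its group. The mean was 32.4 ± 15.2 CPM (SD, n = 3) in WT and 752 ± 533 CPM (SD, n = 3) in Nr2e3-/- tumors. This was a log2 fold change of 4.54 (standard error 0.80, edgeR adjusted p = 0.0930), and without Nr2e3-/- replicate 1 it was 5.04 (standard error 0.38, edgeR adjusted p = 0.00156).

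Saa2 was less abundant than Saa1 in every library, and Nr2e3-/- replicate 1 again lay between the WT libraries and the other libraries of its group. It had levels of 21.0, 11.3 and 7.77 CPM in the WT tumors, against 63.1, 783 and 771 CPM in Nr2e3-/- replicates 1, 2 and 3. Against the WT mean of 13.4 ± 6.85 CPM (SD, n = 3), Nr2e3-/- replicate 1 was 4.72-fold higher, replicate 2 was 58.6-fold higher and replicate 3 was 57.7-fold higher. For Saa2 the log2 fold change was 5.34 (standard error 0.97, edgeR adjusted p = 0.0930), which is 40.4-fold and the largest of the 10 genes. Without Nr2e3-/- replicate 1 it was 5.87 (edgeR adjusted p = 0.00141).

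The balance of the pair differed between libraries. Saa1 had 2.35, 2.48 and 2.56 counts per count of Saa2 in the WT tumors and 2.19 in Nr2e3-/- replicate 1, but 1.31 and 1.41 in Nr2e3-/- replicates 2 and 3. The transcripts of Saa1 and Saa2 are similar. Of the 50-base words of the principal Saa1 transcript, 13.2% were found in any transcript of Saa2. Of those of the principal Saa2 transcript, 9.12% were found in any transcript of Saa1. How reads that match both genes were counted is not given in the sources used here. RefSeq lists each of the 2 symbols as a synonym of the other, so which locus a symbol stands for can depend on the annotation version, and a statement on the pair is firmer than one on either gene.

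The sequence before the start sites of the pair is nearly the same. Over the 250 bases upstream of the RefSeq start site (GRCm38.p6), Saa1 and Saa2 had 238 identical bases in 251 alignment columns (94.8%). The windows were searched on both strands for the letters TTNNGNAA (TTNCNNAA on the other strand, with N for any base), a short form of the sites that C/EBP factors bind, and for GGG and CC with 5 bases of any kind between them, a short form of NF-kB sites. The stretch of Saa2 is shown because the gene had the largest difference, and that of Saa4 because it had the smallest of its family. Bases of an annotated exon or gene were left out, matches are in capitals, and both read 5′ to 3′ on the strand of the gene.
Saa2, chr7:46751583-46751789, plus strand: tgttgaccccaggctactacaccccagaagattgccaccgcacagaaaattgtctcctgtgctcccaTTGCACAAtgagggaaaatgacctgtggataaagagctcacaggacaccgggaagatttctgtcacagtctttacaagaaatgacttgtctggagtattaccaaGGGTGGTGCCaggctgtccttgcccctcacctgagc
Saa4, chr7:46732604-46732853, minus strand: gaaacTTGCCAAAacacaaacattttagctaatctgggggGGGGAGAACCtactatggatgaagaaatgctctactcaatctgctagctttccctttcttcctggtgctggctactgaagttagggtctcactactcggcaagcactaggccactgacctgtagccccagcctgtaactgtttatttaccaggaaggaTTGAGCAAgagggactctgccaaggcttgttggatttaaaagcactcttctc

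In Saa2, the C/EBP letters TTGCACAA began 183 bases before the start site and the NF-kB letters GGGTGGTGCC began 79 bases before it. Saa1 had the same 2 words, beginning 182 and 78 bases before its start site, and a second C/EBP match, TTTCCCAA, beginning 86 bases before it. Saa4 had C/EBP matches beginning 245 and 52 bases before its start site and an NF-kB match beginning 210 bases before it, and its window was 46.3% identical to that of Saa1 and 44.0% to that of Saa2.

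Saa4 and Saa3 complete the cluster on chromosome 7, Saa4 at chr7:46727998-46732603 and Saa3 at chr7:46711998-46715700, both on the minus strand. Saa4, the constitutive member, had levels of 285, 253 and 190 CPM in the WT tumors, against 403, 297 and 528 CPM in Nr2e3-/- replicates 1, 2 and 3. The groups did not overlap, but the lowest Nr2e3-/- library, here replicate 2, was close to the highest WT library. The log2 fold change of Saa4 was 0.76 (standard error 0.24, edgeR adjusted p = 0.154). Saa4 was the only one of the 10 genes for which Nr2e3-/- replicate 1 was not the lowest of its group, and without that library the value was 0.78 (edgeR adjusted p = 0.0866).

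Saa3 encodes a serum amyloid A that is made largely outside the hepatocyte, by macrophages and adipocytes among others. It had levels of 4.22, 2.54 and 3.78 CPM in the WT tumors, against 2.71, 10.7 and 15.6 CPM in Nr2e3-/- replicates 1, 2 and 3. Of the Nr2e3-/- libraries, replicate 1 fell within the WT range and both others were above it. Its log2 fold change was 1.47 (standard error 0.56, edgeR adjusted p = 0.196), and it was 1.91 (edgeR adjusted p = 0.00696) without Nr2e3-/- replicate 1 and 0.95 without Nr2e3-/- replicate 3. Over the 9 macrophage markers in the table, 0 had an unadjusted p-value under 0.05, and their summed level was 365 to 461 CPM in WT tumors and 317, 802 and 417 CPM in Nr2e3-/- replicates 1, 2 and 3. Of 7 adipocyte markers, 3 could be tested, with log2 fold changes of 0.83 for Fabp4, 0.35 for Cidec and -2.13 for Cfd. The groups of Fabp4 and Cfd did not overlap, and 13.9% of all genes tested had non-overlapping groups with the higher level in Nr2e3-/- tumors. The adipocyte list summed to 40.1 to 65.2 CPM in WT tumors and to 35.0, 87.5 and 84.5 CPM in Nr2e3-/- replicates 1, 2 and 3, while its defining genes Plin1, Adipoq and Lep were at most 0.068 CPM in any library. The part of macrophages or adipocytes in the Saa3 difference was not tested.

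The orosomucoids, also called alpha-1-acid glycoproteins, are plasma carriers of lipophilic compounds and drugs. Their genes lie together on the plus strand of chromosome 4, in the order Orm1 (chr4:63344560-63348163), Orm3 (chr4:63356162-63359511) and Orm2 (chr4:63362449-63365878). Orm1, the most abundant of the 3, had levels of 269, 346 and 195 CPM in the WT tumors, against 374, 879 and 772 CPM in Nr2e3-/- replicates 1, 2 and 3. The groups did not overlap, and Nr2e3-/- replicate 1 was only slightly above the highest WT library. For Orm1 the log2 fold change was 1.32 (standard error 0.34, edgeR adjusted p = 0.124), and without Nr2e3-/- replicate 1 it was 1.62 (edgeR adjusted p = 0.00762).

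Orm2 and Orm3 were far less abundant than Orm1 and had larger fold changes. Orm2 had levels of 4.68, 12.5 and 2.29 CPM in the WT tumors, against 5.56, 74.4 and 36.9 CPM in Nr2e3-/- replicates 1, 2 and 3. The groups overlapped, with Nr2e3-/- replicate 1 inside the WT range, and the log2 fold change of 2.59 (standard error 0.93, edgeR adjusted p = 0.179) rested on the other libraries of its group. It was 3.11 (edgeR adjusted p = 0.0195) without Nr2e3-/- replicate 1, 1.72 without Nr2e3-/- replicate 2 and 3.49 without WT replicate 2. Orm3 had levels of 1.57, 1.15 and 0.66 CPM in the WT tumors, against 2.98, 12.7 and 6.81 CPM in Nr2e3-/- replicates 1, 2 and 3. For Orm3 the groups did not overlap, although the lowest library held only 19 counts. Its log2 fold change was 2.75 (standard error 0.56, edgeR adjusted p = 0.0963), and without Nr2e3-/- replicate 1 it was 3.13 (edgeR adjusted p = 0.00544).

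The upstream windows of Orm2 and Orm3 were 85.5% identical, and no window was matched for Orm1. The C/EBP letters, in capitals, stood at nearly the same place in both genes, beginning 120 bases before the RefSeq start site in Orm2 and 121 bases before it in Orm3. The 30 bases around these letters (GRCm38.p6) are set beside those around a match in Saa1 and in Lcn2, picked as similar. Part of the likeness is fixed by the letters searched for. The Saa1 stretch lies within the RefSeq span of its gene and the Lcn2 stretch within the GENCODE span of its gene. Neither is sequence outside the annotated gene. Other matches differed more, such as TTCAGAAA in Saa3, TTGCCAAA in Saa4 and TTTCATAA in Serpina3n, so a core shared by all the genes is not shown. Each stretch reads 5′ to 3′ on the strand of its gene.
Orm2, chr4:63362318-63362347, plus strand: gagagaacattTTGCGCAAgacatttccca
Orm3, chr4:63356026-63356055, plus strand: gagggaacattTTGCACAAgacatttatca
Saa1, chr7:46743144-46743173, minus strand: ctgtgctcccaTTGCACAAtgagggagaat
Lcn2, chr2:32387937-32387966, minus strand: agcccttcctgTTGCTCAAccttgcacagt

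Orm1 and Orm2 share more transcript sequence than any other pair of the 10 genes, with 20.4% of the 50-base words of each found in the other. Orm3 shared 2.21% of its words with Orm1 and 3.59% with Orm2. The counts of Orm2, the less abundant of that pair, are therefore uncertain where reads match both genes.

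Serpina3n, a mouse counterpart of human alpha-1-antichymotrypsin and an inhibitor of serine proteases, lies at chr12:104406729-104414329 on the plus strand. It had levels of 375, 438 and 357 CPM in the WT tumors, against 715, 3643 and 2608 CPM in Nr2e3-/- replicates 1, 2 and 3. The WT libraries lay close together, with the smallest coefficient of variation of the 10 genes in WT tumors (10.8%), and all 3 Nr2e3-/- libraries were above them. The log2 fold change of Serpina3n was 2.57 (standard error 0.53, edgeR adjusted p = 0.0969). Without Nr2e3-/- replicate 1 it was 3.01 (standard error 0.19, edgeR adjusted p = 0.00125), the lowest adjusted p of the 10 genes in that fit.

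The stretch before the RefSeq start site of Serpina3n (GRCm38.p6, plus strand, 5′ to 3′) is shown because overlapping NF-kB matches, GGGCTTTTCC on one strand and GGCTTTTCCC on the other, lie in it beside a C/EBP match, all in capitals.
Serpina3n, chr12:104406458-104406645, plus strand: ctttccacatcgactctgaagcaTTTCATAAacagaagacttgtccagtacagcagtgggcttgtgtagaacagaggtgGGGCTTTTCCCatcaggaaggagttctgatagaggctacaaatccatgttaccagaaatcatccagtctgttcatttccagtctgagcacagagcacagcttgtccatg

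Other Serpina3 genes arose with Serpina3n by duplication, and 0 of them passed an adjusted p-value of 0.05. Of 10 such genes listed, 6 had enough counts to be tested, with a median log2 fold change of 1.30. All 6 were above 0, against 50.8% of all genes tested. At an unadjusted p-value under 0.05, 5 were higher, against 11.8% of all genes tested. Serpina3k, the most abundant, had levels of 6422, 4459 and 6456 CPM in the WT tumors, against 9739, 12747 and 14429.7 CPM in Nr2e3-/- replicates 1, 2 and 3, a log2 fold change of 1.09 (edgeR adjusted p = 0.0973). As for Serpina3n, Nr2e3-/- replicate 1 was the lowest of its group and above every WT library. Serpina3m had a log2 fold change of 1.03 (edgeR adjusted p = 0.116). Serpina3n shares 6.90% of its 50-base words with other genes of the locus, at most 2.68% with any single one.

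Lcn2 encodes a secreted protein that binds bacterial siderophores and so withholds iron, and it is made by hepatocytes, neutrophils and epithelia. The gene lies at chr2:32384633-32388252 on the minus strand. Lcn2 had levels of 64.8, 487 and 25.9 CPM in the WT tumors, against 19.7, 704 and 260 CPM in Nr2e3-/- replicates 1, 2 and 3. The groups overlapped throughout, since WT replicate 2 was among the highest libraries and Nr2e3-/- replicate 1 was the lowest of all 6. The log2 fold change of Lcn2 was 0.77, with a 95% interval from -2.32 to 3.86 (edgeR adjusted p = 0.752), so neither a large increase nor a large decrease was excluded at this spread. Its direction turned with the choice of libraries, with -0.46 without Nr2e3-/- replicate 2 and 2.86 without WT replicate 2.

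Haptoglobin, which binds free hemoglobin, was the most abundant of the 10 genes. Hp lies at chr8:109575128-109579172 on the minus strand and had levels of 2495, 3581 and 2073 CPM in the WT tumors, against 2479, 6225 and 4915 CPM in Nr2e3-/- replicates 1, 2 and 3. Among the Nr2e3-/- libraries, replicate 1 was within the WT range and both others were above it. For Hp the log2 fold change was 0.74, with a 95% interval from -0.10 to 1.58 (edgeR adjusted p = 0.274), and it was 1.05 (edgeR adjusted p = 0.0320) without Nr2e3-/- replicate 1 and 0.45 without Nr2e3-/- replicate 2. Hp and Lcn2 were the only ones of the 10 genes with an unadjusted p-value above 0.05.

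**Figure D2:**
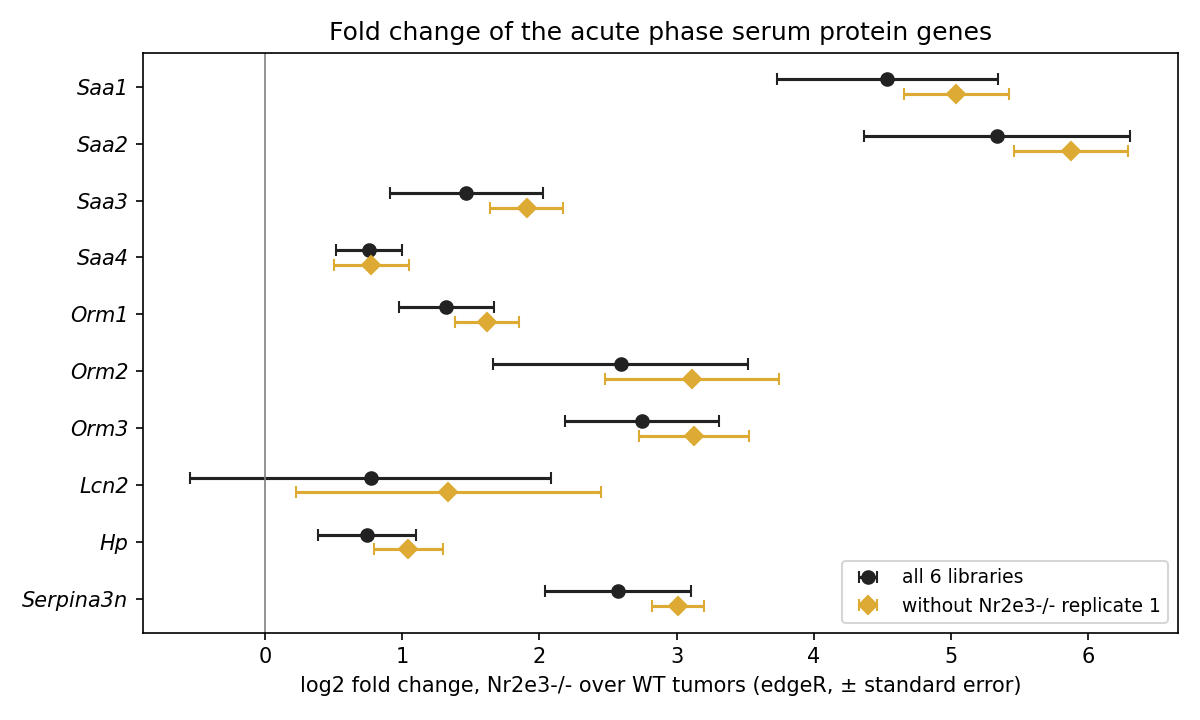
Log2 fold change of each of the 10 genes, Nr2e3-/- over WT tumors, with edgeR's standard error as the bar; black circles use all 6 libraries and yellow diamonds leave out Nr2e3-/- replicate 1. All 10 values are above 0 in both fits, from 0.74 for Hp to 5.34 for Saa2 with all 6 libraries, and the bar of Lcn2 crosses 0 with all 6.

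The spread within a genotype was high for these genes, though not for them alone. The coefficient of variation over the 3 libraries was above the median of all genes tested for all 10 genes in WT tumors (median 9.80%) and for all 10 in Nr2e3-/- tumors (median 18.0%). The other positive acute phase genes were also above the median in Nr2e3-/- tumors, up to 93.3% for Cd14, all but Cfb (15.4%) and Agt (16.0%). The values that follow are those of the 10 genes. In WT tumors it ran from 10.8% for Serpina3n to 133% for Lcn2, and Lcn2 differed 18.8-fold between its highest and lowest library. Among Nr2e3-/- tumors Lcn2 differed 35.8-fold, Orm2 13.4-fold and Saa2 12.4-fold between libraries, while Saa4 differed 1.78-fold.

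The libraries kept their places over most of the 10 genes. Nr2e3-/- replicate 1 was the lowest of its group for 9 genes, against 38.9% of all genes tested, and Nr2e3-/- replicate 2 was the highest for 7, against 35.5% of all genes tested. WT replicate 3 was the lowest of its group for 9 of the 10 genes, all but Saa3, against 35.3% of all genes tested. Among the higher WT libraries the genes divided evenly. WT replicate 1 was the highest for all 4 serum amyloid A genes and Orm3, and WT replicate 2 for Orm1, Orm2, Lcn2, Hp and Serpina3n. Nr2e3-/- replicate 1 was also the library with the fewest counts, and the part of depth in its place was not tested.

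Together the 10 genes took 0.368%, 0.532% and 0.303% of all counts in WT replicates 1, 2 and 3 and 0.413%, 1.30% and 1.05% in Nr2e3-/- replicates 1, 2 and 3. Nr2e3-/- replicate 1 was thus inside the WT range by this sum, which Hp dominates, although its Saa1 level was 4.26-fold and its Saa2 level 4.72-fold the WT mean. For Lcn2 the same library was at 0.102-fold the WT mean. WT replicate 2 dominates that mean, with 487 CPM against 64.8 and 25.9 CPM in WT replicates 1 and 3. Nr2e3-/- replicate 1 was at 0.772-fold for Saa3, 0.859-fold for Orm2 and 0.913-fold for Hp, each within the WT range. The ratios in this library thus differed between genes, and whether they did so beyond the spread was not tested.

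**Figure D3:**
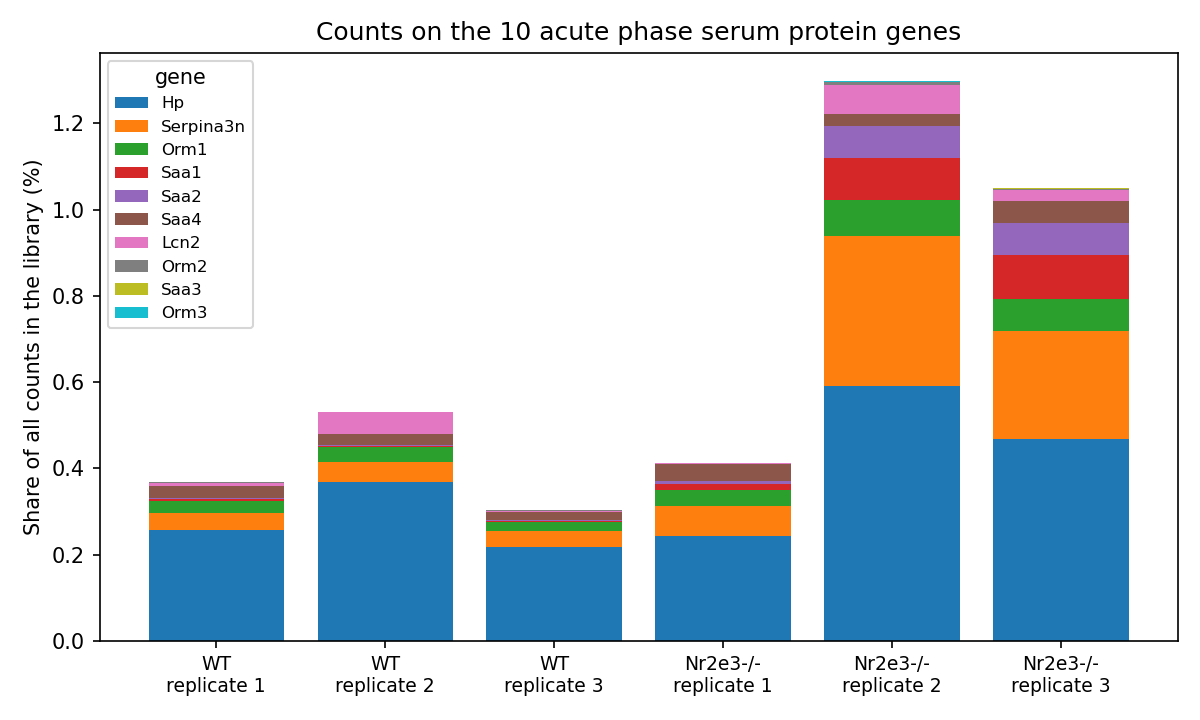
Share of all counts of a library that fell on the 10 genes, in percent, stacked by gene for each of the 6 libraries. The bars of Nr2e3-/- replicates 2 and 3 reach 1.30% and 1.05%, the other 4 lie between 0.303% and 0.532%, and Hp is the largest segment in every bar.

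The order of the genes by level differed between the genotypes. Levels of different genes were compared as CPM per kb of the longest principal protein-coding transcript, since a longer transcript yields more reads. In WT tumors the order was led by Hp (mean 2020 CPM per kb), followed by Orm1 (348), Lcn2 (210), Serpina3n (189), Saa4 (116) and Saa1 (53.2), with Saa2 (20.5), Orm2 (8.35), Saa3 (6.33) and Orm3 (1.46) below them. The ranges over libraries overlapped between Orm1 and Lcn2, between Lcn2 and Serpina3n, between Saa2 and Orm2 and between Orm2 and Saa3. Those neighbors were not separated beyond their spread. The WT range of Lcn2, 28.3 to 532 CPM per kb, also covered those of Saa4 (90.6 to 136) and Saa1 (32.6 to 81.0). Lcn2 was thus not separated from Saa4 or Saa1 either. In Nr2e3-/- tumors Hp again led (3375 CPM per kb), and Saa1 was next (1235), followed by Serpina3n (1125), Orm1 (871) and Saa2 (827). The ranges of these 4 overlapped from each gene to the next, as they did on to Lcn2 (358) and Saa4 (196). Orm2 (50.3), Saa3 (17.4) and Orm3 (9.68) stayed at the end of the order by mean. The Nr2e3-/- range of Lcn2, 21.5 to 770 CPM per kb, reached those of Orm2 (7.18 to 96.0) and Saa3 (4.89 to 28.2). Saa4 and Saa1 thus changed places, with Saa4 above Saa1 in every WT tumor on this scale.

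The other positive acute phase genes gave a smaller difference in the same direction. Of 21 such genes, 19 had a log2 fold change above 0, against 50.8% of all genes tested. Higher levels in Nr2e3-/- tumors at an unadjusted p-value under 0.05 were seen for 11, against 11.8% of all genes tested. Lower levels at that threshold were seen for 0, against 9.72%, and 0 of the 21 genes passed an adjusted p-value of 0.05. Their median was 0.91, and it was 0.56 without Nr2e3-/- replicate 2. The fibrinogen chains had log2 fold changes of 1.19 (Fga), 1.15 (Fgb) and 1.14 (Fgg), and C-reactive protein (Crp), which in mice is only a minor acute phase protein, had 0.91. Steap4, a metalloreductase that inflammation induces, had 2.15.

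The largest values on that list belonged to the metallothioneins, small proteins that bind zinc and copper. Mt2 had levels of 38.8, 40.0 and 7.73 CPM in the WT tumors, against 167, 1689 and 1722 CPM in Nr2e3-/- replicates 1, 2 and 3, a log2 fold change of 5.37 (edgeR adjusted p = 0.0930). Its libraries stood in an arrangement like that of Saa1 and Saa2, with Nr2e3-/- replicate 1 between the WT tumors and the other Nr2e3-/- tumors. Mt1 had 4.53 (edgeR adjusted p = 0.0930). The only 2 genes of the list below 0 were Hamp, the iron hormone hepcidin, with -0.76 (edgeR adjusted p = 0.238) and Agt, angiotensinogen, with -0.28 (edgeR adjusted p = 0.333).

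The negative acute phase genes were centered near 0. Over 10 genes the median log2 fold change was -0.0067, 4 were above 0 and 6 below. At an unadjusted p-value under 0.05, 1 of the 10 was higher (Fetub, 0.36) and 1 lower (Serpina6, the corticosteroid-binding globulin, -0.93). Those counts are near the shares of all genes tested, 11.8% and 9.72%. Both genes had non-overlapping groups, and 13.9% of all genes tested had such groups with the higher level in Nr2e3-/- tumors. Alb, albumin, had a log2 fold change of -0.27 with overlapping groups, and Ttr, transthyretin, had -0.07.

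Of the cytokines that induce the acute phase, most were near the limit of detection. Among 8 listed, 3 passed the filter on low counts, with log2 fold changes of -0.42 for Il1a, 0.09 for Il1b and -1.56 for Lif, all with overlapping groups and 0 with an unadjusted p-value under 0.05. Il6 was at most 0.162 CPM in any library, Osm at most 0.111 CPM and Tnf at most 0.406 CPM. Il22 had 0 counts in all 6 libraries. Messenger RNA in the tumor does not give the level of a cytokine in blood.

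Of 8 receptors of these cytokines, 0 passed an adjusted p-value of 0.05. Higher levels in Nr2e3-/- tumors were found for 6 of the 8 at an unadjusted p-value under 0.05, against 11.8% of all genes tested, and the same 6 had non-overlapping groups, against 13.9%. The median log2 fold change was 0.90. Il1r1, the receptor for interleukin-1, had levels of 59.8, 73.0 and 66.9 CPM in the WT tumors, against 124, 567 and 574 CPM in Nr2e3-/- replicates 1, 2 and 3, a log2 fold change of 2.66 (edgeR adjusted p = 0.0936). As for Saa1, its Nr2e3-/- replicate 1 lay between the WT tumors and the rest. Osmr had 1.85, Tnfrsf1a 1.02, Il6ra 0.98, the shared subunit Il6st (gp130) 0.81 and Lifr 0.39, while Il1rap had -0.08 and Il22ra1 -0.07.

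Transcription factors and feedback genes of the acute phase were examined as 12 genes, with a median log2 fold change of 0.79. At an unadjusted p-value under 0.05, 9 were higher and 1 lower, against 11.8% and 9.72% of all genes tested. Socs3, a feedback inhibitor that STAT3 induces, had levels of 11.7, 9.85 and 10.7 CPM in the WT tumors, against 5.30, 96.5 and 54.0 CPM in Nr2e3-/- replicates 1, 2 and 3. In Nr2e3-/- replicate 1 Socs3 was below every WT library, and in both others it was above every WT library. Its log2 fold change was 2.28 (edgeR adjusted p = 0.180), and without Nr2e3-/- replicate 1 it was 2.82 (edgeR adjusted p = 0.00193). Bcl3 had 1.42, Nfkb1 1.34, Cebpd 1.22, Cebpb 1.04 and Stat3 0.86, and the lower gene was Cebpa with -0.36.

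Receptors and binding partners of the 10 proteins differed less. Of 10 listed, 9 passed the filter, the median log2 fold change was 0.48 and it was 0.13 without Nr2e3-/- replicate 2. Tlr2, which senses serum amyloid A among other ligands, was higher (1.96, edgeR adjusted p = 0.200). Cd36, a scavenger receptor, was lower (-0.81, edgeR adjusted p = 0.0963). Each had an unadjusted p-value under 0.05, so 1 of the 9 was higher and 1 lower, near the shares of all genes tested (11.8% and 9.72%). Cd163, which takes up complexes of haptoglobin and hemoglobin, had 0.42, and Scarb1, a receptor for high-density lipoprotein and serum amyloid A, had 0.21.

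**Figure D4:**
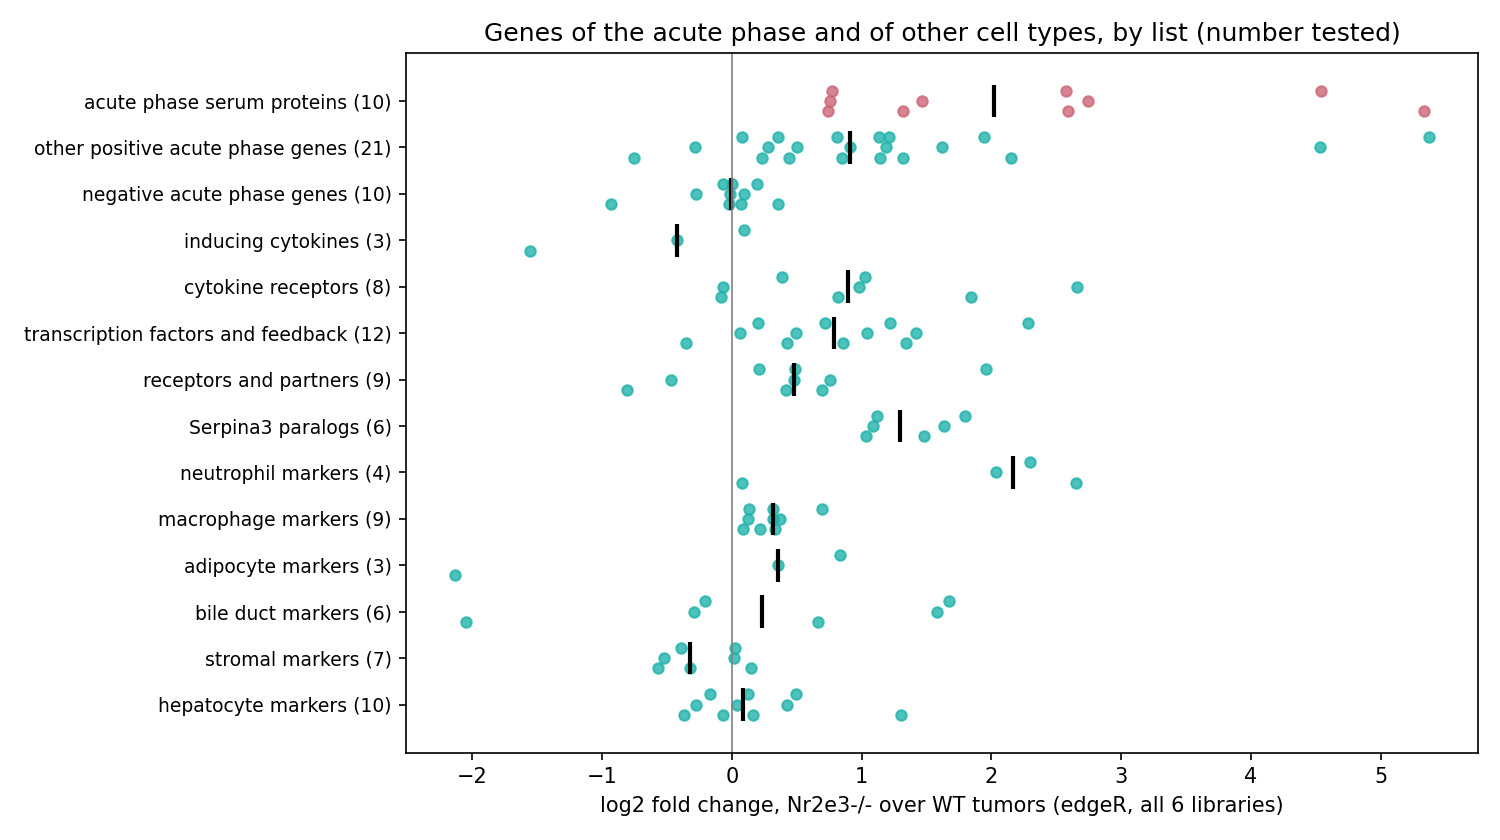
Log2 fold change of each tested gene, Nr2e3-/- over WT tumors (edgeR, all 6 libraries), by gene list; each point is a gene, the black bar is the median of the list and the number in parentheses is how many genes of it were tested. The 10 acute phase serum protein genes, in red, have the median of 2.02, the other positive acute phase genes 0.91, and the negative acute phase genes are centered near 0.

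Neutrophils also make Lcn2 and haptoglobin. Of 12 neutrophil markers listed, 11 were in the table and 4 were tested, of which 0 passed an adjusted p-value of 0.05. At an unadjusted p-value under 0.05, 3 were higher, against 11.8% of all genes tested. Their log2 fold changes were 2.65 (S100a8), 2.30 (S100a9) and 2.04 (Cxcr2). Csf3r, the receptor for granulocyte colony-stimulating factor, had 0.08, with levels of 1.57, 2.74 and 1.84 CPM in the WT tumors, against 0.79, 3.49 and 2.05 CPM in Nr2e3-/- replicates 1, 2 and 3. The summed level of the 11 markers was 3.78 to 6.50 CPM in WT tumors and 3.64, 31.2 and 19.2 CPM in Nr2e3-/- replicates 1, 2 and 3. The granule genes Elane, Mpo, Ltf, Camp and Ngp were at most 0.408 CPM in any library. WT replicate 2, in which Lcn2 was 487 CPM, had the highest summed neutrophil level of the WT tumors, 6.50 CPM. Nr2e3-/- replicate 3, with a summed level of 19.2 CPM, had less Lcn2, 260 CPM. The part of neutrophils in the differences of Lcn2 and Hp was not tested.

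Other cell types were checked in the same way. The stromal markers had a median log2 fold change of -0.33 over 7 genes, 0 of them with an unadjusted p-value under 0.05, and the macrophage markers had 0.32 over 9. Summed over the stromal list, the level was 247 to 268 CPM in WT tumors and 282, 168 and 159 CPM in Nr2e3-/- replicates 1, 2 and 3. Without Nr2e3-/- replicate 1 the stromal median was -0.59. In that fit 3 of the 7 stromal markers passed an adjusted p-value of 0.05, all lower, against 3022 of 13840 genes tested, in either direction. With all 6 libraries limma-voom called 3 of the 7, against 2360 of 13572 genes. Both medians changed sign when another library was left out, to 0.03 for the stromal markers without Nr2e3-/- replicate 3 and to -0.19 for the macrophage markers without Nr2e3-/- replicate 2. Among 6 bile duct markers tested, Epcam (1.58) and Spp1 (1.68) were higher and Cldn7 (-2.05) was lower at an unadjusted p-value under 0.05. Over all genes tested, 11.8% were higher and 9.72% lower at that threshold. Krt7 and Krt19 were at most 1.79 CPM in any library. Summed over the bile duct list, the level was 58.0 to 122 CPM in WT tumors and 69.9, 429.5 and 187 CPM in Nr2e3-/- replicates 1, 2 and 3. The part of any of these in the differences of the 10 genes was not tested.

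The genes whose pattern over the 6 libraries was most like that of the 10 acute phase genes were found by correlation with the mean of their standardized log2 levels. Among 258 candidates with a mean of at least 50 counts and an SD of at least 1 on the log2 scale, the highest Pearson correlations (n = 6 libraries) were those of Ppl (0.991), Dhrs9 (0.990), 2010003K11Rik (0.988), Mt1 (0.986), Steap4 (0.986) and S100a9 (0.985). They were followed by Mrap (0.984), Slc37a1 (0.982), Ptpn1 (0.982) and Slc41a2 (0.980). Ppl encodes periplakin, which links the cytoskeleton to cell junctions, and it had levels of 75.2, 65.6 and 39.0 CPM in the WT tumors, against 69.2, 270 and 246 CPM in Nr2e3-/- replicates 1, 2 and 3. These correlations describe the same 6 libraries that the 10 genes come from, and any gene high in Nr2e3-/- replicates 2 and 3 and low elsewhere would score well.

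Over the 8 genes with a RefSeq window, the C/EBP letters occurred in all 8, against 36.8% of 32851 windows of 250 bases over all genes. Not all of this sequence lies outside the genes. In the window of Saa3 250 bases, and in that of Saa1 201 bases, lay within the RefSeq span of the gene itself. In that of Lcn2, 197 bases were annotated exon. The windows of Saa1 and Saa2 were 94.8% identical and those of Orm2 and Orm3 85.5%, so the 8 are not independent. The NF-kB letters occurred in 5 of the 8 (Saa1, Saa2, Saa4, Lcn2 and Serpina3n), against 45.8% of all windows. The letters TTCNNNGAA, a short form of STAT sites, occurred in 0 of the 8, against 7.02%, and the letters CTGGGAA of the interleukin-6 response element occurred in 0 of the 8, against 9.10%. Saa3 held 4 C/EBP matches, beginning 216, 191, 129 and 99 bases before its start site. A match says only that these letters lie in the window, and the C/EBP letters occurred both in Saa2, with the largest difference, and in Saa4, with one of the smallest.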

How the data were processed

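RNA was extracted with a miRvana kit from 3 WT and 3 Nr2e3-/- liver tumors, and libraries were made with the TruSeq kit. The authors used TopHat for alignment of the single-end reads to mm10 and FeatureCounts for counts per gene, and the deposited values used here are raw counts. Strand setting and treatment of reads matching several genes are not given in the sources used here. The authors' normalized values and DESeq2 comparison were not used. Dose, age and time point came from the study's methods, groups and replicate numbers from the sample titles, since other label fields were shifted. P-values measure the spread between these mice.

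Genes were filtered with edgeR 4.0.16 in R 4.3.3 (filterByExpr, with at least 10 counts in enough libraries and 15 in total). TMM normalization and the two-sided quasi-likelihood F test followed, with Benjamini-Hochberg adjustment and a threshold of 0.05. All 10 members passed the filter. Log2 levels used a prior count of 2. Depth was 15376261 to 28690279 counts per library. Alternatives used DESeq2 1.42.0 and limma 3.58.1. The fits were tested on simulated data.

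The members and gene lists were chosen with earlier results of these data known. Named genes were the members, list genes by threshold, unadjusted p-value or size of change, and the 10 genes most like the members. Positions and transcripts came from GENCODE M21 and upstream windows from RefSeq, both GRCm38. Of the 10 members, 8 had a window. Sequence similarity was counted as shared 50-base words. The files' counting annotation may differ from M21. Figures were drawn with matplotlib 3.10.9.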

Additional observations from a re-analysis of the deposited data

How the results depend on the processing

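Of the 10 acute phase serum protein genes, those past the threshold numbered 0 with RLE or upper quartile normalization, at least 10 counts in every library, or the replicate block. They numbered 6 with DESeq2, 8 with limma-voom, 2 without a filter beyond 1 count, and 0 to 8 without a single library, the 8 without Nr2e3-/- replicate 1. The log2 fold changes that passed were, with DESeq2, 4.55 for Saa1, 5.35 for Saa2, 0.77 for Saa4, 1.33 for Orm1, 2.75 for Orm3 and 2.58 for Serpina3n. With limma-voom they were 4.70, 5.44, 1.79, 0.90, 1.41, 2.61, 2.71 and 2.57 for Saa1, Saa2, Saa3, Saa4, Orm1, Orm2, Orm3 and Serpina3n. Without a filter beyond 1 count they were 4.55 for Saa1 and 5.35 for Saa2. The cause of these differences between settings was not tested.

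Leaving out each library in turn gave 4.17 to 5.04 for Saa1, 4.97 to 5.87 for Saa2, 0.95 to 1.91 for Saa3, 0.53 to 0.94 for Saa4, 1.09 to 1.62 for Orm1, 1.72 to 3.49 for Orm2, 2.13 to 3.13 for Orm3, -0.46 to 2.86 for Lcn2, 0.45 to 1.05 for Hp and 2.09 to 3.01 for Serpina3n. Lcn2, without Nr2e3-/- replicate 2, was the only one that reversed. The median of the 10 genes was 1.56 to 2.71 in these fits.

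Over all genes tested, 13 passed the threshold, against 8 with upper quartile normalization, 1096 with DESeq2, 2360 with limma-voom, 70 without a filter beyond 1 count, 7 with at least 10 counts in every library, 0 with the replicate block and 0 to 3022 without a single library. The median of the negative acute phase genes was -0.091 with upper quartile normalization and -0.037 to 0.12 without a library, that of the hepatocyte markers -0.0025 and 0.053 to 0.12, and that of the macrophage markers -0.19 to 0.55 without a library.

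Same-numbered libraries deviated together with correlations of -0.08, 0.22 and 0.02, so the numbers were not taken to pair the samples. With the replicate block, the log2 fold change was 4.32 for Saa1, 5.04 for Saa2 and 2.31 for Serpina3n, and the median of the 10 genes was 1.79.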
